A study of Mus musculus with 4 samples.

Results

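The G1 cell cycle switch was examined in large peritoneal macrophages (LPMs), which live in the peritoneal cavity, through 10 genes of the 18364 genes in the deposited table. The genes, taken from the table by symbol, are the D-type cyclins *Ccnd1*, *Ccnd2* and *Ccnd3*, the kinases *Cdk4* and *Cdk6*, the CDK inhibitors *Cdkn1a*, *Cdkn1b* and *Cdkn2c*, the retinoblastoma gene *Rb1*, and *Myc*. All 10 were found in the table under these symbols. Like every gene of the table, they passed the filter on low values, which asked for 1 or more in 2 or more libraries.

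To ask how retinoid X receptor alpha (RXRα), a nuclear receptor that pairs with other nuclear receptors, shapes LPM transcription, the study sequenced bulk RNA of LPMs double-sorted from 8-week-old C57BL/6 mice. The 4 libraries are 2 labelled wild type (WT) and 2 labelled Rxra-/- (Rxra-KO). Per the methods, Rxra-KO mice carried LysM-Cre with 2 floxed *Rxra* alleles and WT mice were littermates with the floxed alleles and no Cre, so both groups share the floxed alleles. The Cre is expressed from the *Lyz2* locus, which is active across the myeloid lineage and not in LPMs alone. The labels do not tie a library to single or pooled animals, so the spread between these samples may be technical. The limma p-values given below rest mainly on a spread shared across all genes, not on that of each gene's own samples.

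Values are a normalised read signal scaled to library size, from which whole reads could be recovered. Depth ranged from 629030 to 1047021 recovered reads per library, and each read added 0.993 to 1.51 to a value. The median gene had 9 reads per library, so counting error is large for the lower genes. *Rxra* itself did not follow the labels: its value was 31.0 and 30.9 in the WT libraries and 50.4 and 76.97 in the libraries labelled Rxra-KO (log2 fold change 0.99, limma adjusted p = 0.183). Gene totals cannot show whether the deleted exons were absent, so directions are given for the libraries as labelled. *Lyz2*, the locus that carries the Cre, had values of 14263 and 11591 in WT and 6386 and 6230 in the libraries labelled Rxra-KO (log2 fold change -1.03, limma adjusted p = 0.00163). Of 13 LPM markers, 10 fell with the Rxra-KO label and none rose, and their summed value was 54721 to 55425 in WT against 27790 to 30681. *Lyz2* is 1 of these 13. Of the other 12, 9 fell, with summed values of 41161 and 43130 in WT against 21404 and 24451. *Prg4* alone was most of each of these sums, at 28429 and 29683 in WT against 15129 and 16567. Of 10 markers of monocytes or small peritoneal macrophages, 7 rose and 1 fell, with summed values of 775 and 2622 in WT against 4532 and 6430. The 1 that fell was the MHC class II gene *H2-Ab1*, at 366 and 2484 in WT against 160 and 610. Its groups overlapped, and it was most of the WT replicate 2 sum. Over all genes, 0.969% were called lower and 1.32% higher. The part of these marker changes in the results below was not tested. In bulk RNA, fewer cells of a type and less RNA per cell cannot be told apart. For the 6 other cell types checked, 30 of 42 markers were in the table, 1 was called, and each type's summed value was between 6.06 and 134 per library. The 1 called was *Cd209a*, a dendritic cell marker that rose and is also among the 7 above. Neutrophils had 2 of 7 markers in the table.

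Passage from G1 into S phase is set by a chain of proteins. Growth signals raise the D-type cyclins, which bind CDK4 or CDK6; these kinases phosphorylate the RB protein, which then releases E2F factors to switch on DNA replication genes. The INK4 inhibitors, such as the product of *Cdkn2c*, block CDK4 and CDK6, and the CIP/KIP inhibitors, such as those of *Cdkn1a* and *Cdkn1b*, act on cyclin-CDK complexes more broadly, while MYC, with its partner MAX, binds E-box sequences and drives growth and cell cycle genes. Resident macrophages such as LPMs maintain themselves in part by local proliferation.

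RefSeq promoters (GRCm38.p6, 250 bases before to 50 after a start site) were matched for 6 of the 10 genes, in 9 windows. The *Cdk4* window is shown because it holds 4 copies of the E-box CACGTG, the recognition sequence of MYC and MAX, and because *Cdk4* is the member with the most matches to it. It lies at chr10:127063285-127063584 on the plus strand. Capitals mark the E-boxes and the nuclear receptor half-site AGGTCA, which overlaps one of them.
Cdk4: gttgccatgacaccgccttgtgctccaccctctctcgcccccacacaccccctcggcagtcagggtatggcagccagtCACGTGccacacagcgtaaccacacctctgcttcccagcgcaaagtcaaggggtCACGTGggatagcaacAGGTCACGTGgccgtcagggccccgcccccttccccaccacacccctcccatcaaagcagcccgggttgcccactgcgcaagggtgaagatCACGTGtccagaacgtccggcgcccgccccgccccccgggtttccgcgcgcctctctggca
Relative to the start site, the E-boxes begin at -172, -118, -98 and -11 and the half-site at -102. Of 6 motifs searched on both strands, CACGTG was in 3 of the 9 windows (*Cdk4*, *Cdk6* and *Cdkn2c*) and in 7.15% of all 32851 promoters. AGGTCA was in 3 of the 9 windows (*Ccnd3*, *Cdk4* and *Cdkn2c*) and in 16.3% of all promoters. The GC box GGGCGG was in 6 windows and 35.7% of all promoters. The E2F motif TTTNGCGC (1.38% of promoters), the CRE motif TGACGTCA (1.79%) and the AP-1 motif TGANTCA (7.81%) were in none of the 9. A match describes letters only and is not a measured binding site. *Ccnd1*, *Ccnd2*, *Rb1* and *Myc* had no entry.

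*Ccnd1*, which encodes cyclin D1, was the 1 gene of the switch called, and it was lower with the Rxra-KO label. Its value was 172 and 232 in the WT libraries and 20.3 and 15.4 in the libraries labelled Rxra-KO, from 113 and 213 reads against 13 and 15. The groups did not overlap, and each WT library was far above both libraries labelled Rxra-KO. The mean was 202 ± 42.3 (SD, n = 2) in WT and 17.9 ± 3.49 (SD, n = 2) in the libraries labelled Rxra-KO, an 11.3-fold lower mean. On the log2(value + 1) scale, which understates changes of low genes, the change was -3.42 ± 0.33 (SE), with a 95% interval of -4.07 to -2.78 and a limma adjusted p of 3.35e-18, adjusted by Benjamini-Hochberg over all genes. Ordered by p, *Ccnd1* was gene 26 of 18364 and number 5 among the genes that were lower.

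*Ccnd2* and *Ccnd3* encode cyclins that can take the place of cyclin D1 in binding CDK4 and CDK6. *Ccnd2* had values of 20.4 and 14.6 in WT and 14.3 and 25.3 in the libraries labelled Rxra-KO (log2 fold change 0.13 ± 0.52 SE, limma adjusted p = 0.981). Its groups overlapped, and the interval of -0.88 to 1.15 spans both a decrease and an increase. *Ccnd3* had values of 21.95 and 53.7 in WT and 38.4 and 9.44 in the libraries labelled Rxra-KO (log2 fold change -0.81 ± 0.46 SE, interval -1.70 to 0.09, limma adjusted p = 0.583). *Ccnd3* varied more inside each group than between them, and its sign turns when Rxra-KO replicate 2 is left out. The upper end of the *Ccnd1* interval lay below the lower ends for *Ccnd2* and *Ccnd3*; the difference between the genes' changes was not tested.

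**Figure D1:**
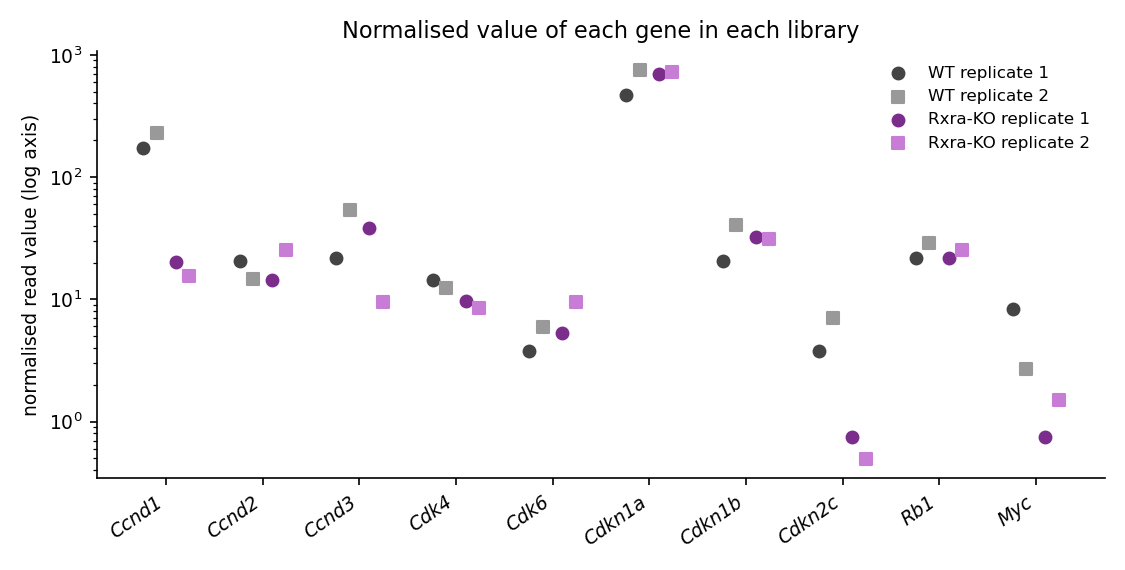
Normalised value (log axis) of the 10 genes in each of the 4 libraries, as points by group. *Ccnd1* separates widely, with 172 and 232 in WT against 20.3 and 15.4 in the libraries labelled Rxra-KO, while *Cdkn1a* lies between 472 and 749 in every library.

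The 3 D-type cyclins were then summed in each library. Their summed value was 214 and 300.0 in WT and 73.0 and 50.2 in the libraries labelled Rxra-KO. The mean was 257 ± 60.6 (SD, n = 2) against 61.6 ± 16.2 (SD, n = 2), 4.17-fold lower. *Ccnd1* made up 80.2% and 77.2% of the sum in WT and 27.8% and 30.7% in the libraries labelled Rxra-KO, a mean difference of -49.4 percentage points. The exact permutation test gave p = 0.333 for the sum and for the share, two-sided, which is the smallest that 2 libraries against 2 can give, so neither can pass 0.05. Counting error alone was smaller than this gap. By exact Clopper-Pearson 95% intervals the *Ccnd1* share of the family's 140 and 275 reads in WT was at least 73.2% and 72.1%, and the share of the 47 and 49 family reads under the Rxra-KO label was at most 42.6% and 45.4%. Reads carry no molecular identifiers and are not independent molecules, so these intervals cover counting error only. Divided by transcript length, the share was 77.1% and 69.1% in WT and 21.0% and 32.7% in the libraries labelled Rxra-KO.

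The other members of the family gave no called change. *Ccnd2* and *Ccnd3* together had values of 42.4 and 68.3 in WT and 52.7 and 34.8 in the libraries labelled Rxra-KO (exact permutation p = 0.667), and these groups overlapped. The 2 libraries labelled Rxra-KO also divided the family differently. *Ccnd3* was 52.6% of the sum in replicate 1 and 18.8% in replicate 2, and *Ccnd2* was 19.6% and 50.5%.

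**Figure D2:**
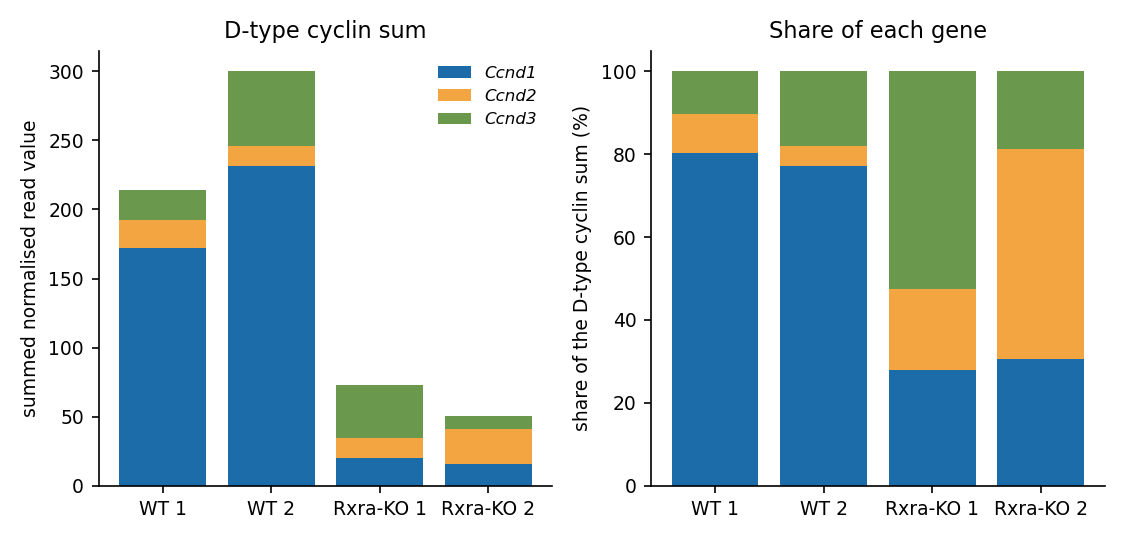
Value of *Ccnd1*, *Ccnd2* and *Ccnd3* in each library and the share of their sum, in percent. *Ccnd1* makes up 77.2% to 80.2% of the sum in WT and 27.8% to 30.7% in the libraries labelled Rxra-KO.

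*Cdk4* and *Cdk6* encode the kinases that D-type cyclins activate, and neither was called. *Cdk4* had values of 14.4 and 12.5 in WT and 9.79 and 8.44 in the libraries labelled Rxra-KO, from 9 and 11 reads against 6 and 8. The groups did not overlap, but the log2 fold change of -0.51 ± 0.63 (SE) had an interval of -1.76 to 0.73. *Cdk6* had values of 3.79 and 5.97 in WT and 5.27 and 9.44 in the libraries labelled Rxra-KO, from 2 and 5 reads against 3 and 9 (log2 fold change 0.49, interval -1.02 to 1.99). Its groups overlapped, and at this depth neither a 2-fold decrease nor a 2-fold increase lies outside its interval. Summed over libraries, *Cdk4* had 20 reads against 14, a WT-over-Rxra-KO rate ratio of 1.51 with a counting interval of 0.725 to 3.23. *Cdk6* had 7 against 12, a ratio of 0.616 with an interval of 0.205 to 1.70.

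*Cdkn1a*, which encodes the CIP/KIP inhibitor p21 and is a target of p53, was the highest of the 10 genes per length of transcript in every library. Its value was 472 and 749 in WT and 692 and 728 in the libraries labelled Rxra-KO. The higher WT library lay above both libraries labelled Rxra-KO, so the groups overlapped, and the spread in WT (610 ± 196, SD, n = 2) was wider than that in the other group (710 ± 25.9, SD, n = 2). The log2 fold change was 0.26 ± 0.22 (SE), with an interval of -0.18 to 0.69 and a limma adjusted p of 0.809. This is the narrowest interval of the 10, and its upper end lies above the fold threshold of 0.6.

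*Cdkn1b*, which encodes the CIP/KIP inhibitor p27, had values of 20.4 and 40.7 in WT and 32.4 and 31.3 in the libraries labelled Rxra-KO. Both libraries labelled Rxra-KO lay between the WT libraries (log2 fold change 0.13, interval -0.69 to 0.96). *Cdkn2c*, which encodes the INK4 inhibitor p18, had values of 3.79 and 7.05 in WT and 0.753 and 0.4966 in the libraries labelled Rxra-KO, from 2 and 6 reads against 0 in both. Its groups did not overlap, but it passed the filter on low values through the WT libraries alone. Set against an assumed floor of 3 reads over the Rxra-KO group, the WT rate was 2.82-fold higher, which is not a lower bound. The counting interval of the ratio of 8 reads to 0, WT over Rxra-KO, begins lower, at 1.80. Its limma p was 0.0160 before adjustment and 0.288 after, so it did not pass the test, and its fitted fold change of -1.94 depends on how 0 reads are treated.

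Of 5 other CDK inhibitors looked up, 3 were in the table. *Cdkn2b*, *Cdkn1c* and *Cdkn2d* had log2 fold changes of -1.27, -0.78 and -0.72, with a median of -0.78 against 0.02 for all genes, and none was called. *Cdkn2b*, the INK4 inhibitor p15, had values of 47.7 and 32.002 in WT and 23.3 and 10.4 in the libraries labelled Rxra-KO (limma adjusted p = 0.157).

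*Rb1*, which encodes the RB protein itself, had values of 21.95 and 28.7 in WT and 21.8 and 25.3 in the libraries labelled Rxra-KO. Its groups overlapped and its means differed by less than their spread (25.4 ± 4.80 against 23.6 ± 2.47, SD, n = 2 each). The log2 fold change was -0.09 ± 0.45 (SE), with an interval of -0.99 to 0.80. *Rbl1* and *Rbl2*, the RB relatives p107 and p130, had log2 fold changes of -0.82 and 0.15, and neither was called.

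*Myc* was low in both groups. Its value was 8.33 and 2.71 in WT and 0.753 and 1.49 in the libraries labelled Rxra-KO, from 5 and 2 reads against 0 and 1. The groups did not overlap, and the ratio of 7 reads to 1, WT over Rxra-KO after depth, was 7.39 with a counting interval of 0.950 to 333, which includes no difference. The log2 fold change was -1.49 ± 0.80 (SE), and the limma adjusted p was 0.541. *Max*, *Mxd1* and *Mxi1*, the partner of MYC and factors that compete for it, had log2 fold changes of 1.06, 0.12 and 0.08, and none was called.

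Levels of the 10 genes were compared with one another only after division by transcript length. Per kilobase, WT levels ran from *Cdkn1a* (293 ± 94.3, SD, n = 2) and *Ccnd1* (53.9 ± 11.3) through *Ccnd3* (17.9 ± 10.6) to *Cdkn1b*, *Cdk4* and *Rb1* (6.71, 6.54 and 5.44), then *Ccnd2*, *Myc* and *Cdkn2c* (2.77, 2.36 and 2.19) and *Cdk6* (0.423 ± 0.134). Neighbours in this order overlapped within the group of *Cdkn1b*, *Cdk4* and *Rb1* and within the group of *Ccnd2*, *Myc* and *Cdkn2c*, and the other neighbours did not overlap. In the libraries labelled Rxra-KO, *Cdkn1a* was again first at 341 ± 12.5 per kilobase and *Ccnd3* next at 11.3 ± 9.69, overlapping with *Cdkn1b* at 6.99. *Ccnd1* moved from position 2 in both WT libraries to positions 4 and 5, with 4.78 per kilobase, a level that overlapped those of *Rb1* and *Cdk4* (5.06 and 4.44). *Ccnd2* and *Cdk6* followed at 3.13 and 0.638. *Myc* and *Cdkn2c*, with 0 or 1 reads in these libraries, were at the floor and are not ranked.

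Set against the whole table, 1 of the 10 genes was called by limma (adjusted p below 0.05, log2 fold change beyond 0.6 either way), against 2.29% of all genes. Calls toward lower values made up 0.969% of all genes and calls toward higher values 1.32%; *Ccnd1* was lower and no member was higher. The groups did not overlap for 4 of the 10 (*Ccnd1*, *Cdk4*, *Cdkn2c* and *Myc*), against 38.1% of all genes. All 4 had their lower values under the Rxra-KO label, and *Cdk4*, *Cdkn2c* and *Myc* had mean reads under 10.

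**Figure D3:**
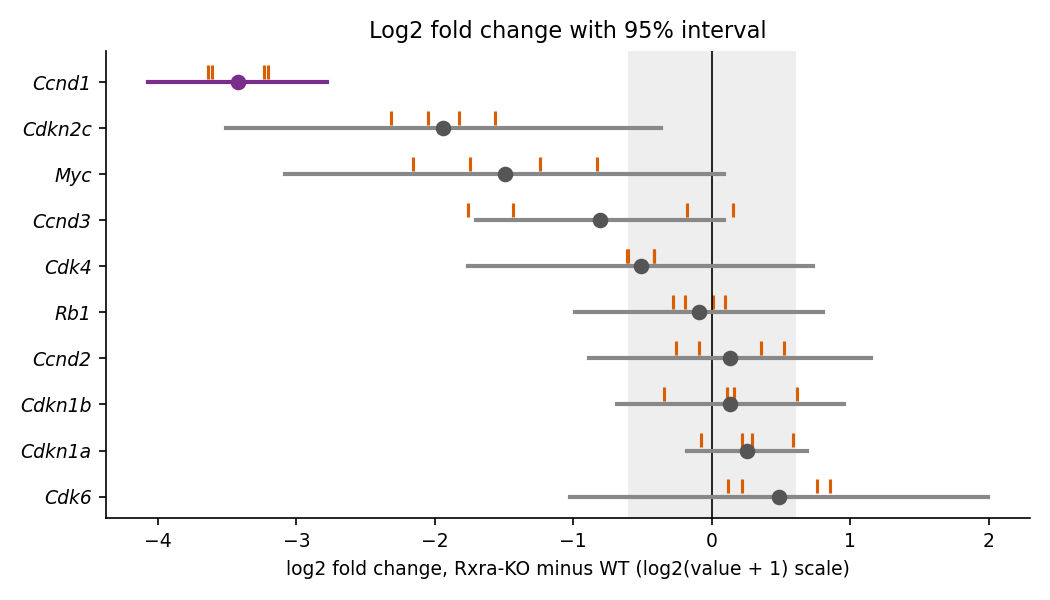
Log2 fold change of each gene, libraries labelled Rxra-KO against WT (point), with its 95% interval (bar), the values when 1 library is left out (ticks) and the band within 0.6 of 0 (grey). *Ccnd1* alone is called (purple), at -3.42, and its estimate stays between -3.64 and -3.21 with any library left out.

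Downstream and around the switch, 9 lists of genes were described by how many of their genes passed the same test. Among 25 E2F target genes, 5 fell (*Mcm2*, *Mcm3*, *Mcm5*, *Cdt1* and *Tk1*) and none rose. Of all genes, 0.969% were called lower and 1.32% higher. *Mcm2*, *Mcm3* and *Mcm5* encode parts of the replicative helicase, *Cdt1* its loading factor, and *Tk1* a thymidine kinase of S phase. *Mcm2* had values of 68.9 and 94.9 in WT and 30.9 and 33.3 in the libraries labelled Rxra-KO (log2 fold change -1.31, limma adjusted p = 0.0117). *Tk1* had 21.95 and 38.5 against 8.28 and 4.47 (-2.08, limma adjusted p = 0.0233). The list's median change was -0.93, against a median of 0.02 for all genes, and 21 of its 25 genes were lower. Its groups did not overlap for 13 genes, against 38.1% of all genes, and 7 genes had mean reads under 10. *Pcna*, *Tyms* and *Slbp*, the genes of the list with the highest mean values, had changes of -0.20, -0.09 and -0.21, with overlapping groups, and were not called. No gene of the 25 was called with DESeq2, which gave an adjusted p for only 18 of them. The DESeq2 adjusted p of the 5 ran from 0.137 to 0.428. None of the 25 was called with an adjusted p under 0.01 or without the mean-variance trend in limma, and 5 were called with edgeR. The calls also depend on single libraries: 0 of the 25 were called without WT replicate 2 (median -0.65), 1 without Rxra-KO replicate 2, 3 without Rxra-KO replicate 1 and 4 without WT replicate 1. The median stayed below that of all genes in each case. A fit without 1 library leaves 1 library in that group, which limma then takes to vary like the other group, and this holds for every call given below with a library left out.

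The list of RB family and E2F/DP factors, which also held *Lin9*, *Lin37*, *Lin52*, *Lin54* and *Rbbp4*, did not show calls. Of its 17 genes, none passed the test, and the median was -0.18. *E2f1* had a log2 fold change of -0.50. Of 17 other G1/S cyclins, kinases and regulators none was called, with a median of 0.09. Among these, *Ccne1* and *Ccne2* (cyclins E1 and E2) had log2 fold changes of 0.47 and -1.10, and *Skp2*, which marks p27 for degradation, had 0.37. *Cdk2*, the kinase of cyclin E, had 0 and 1 reads under WT against 4 and 6, a log2 fold change of 1.83 that did not pass the test (limma adjusted p = 0.349).

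**Figure D4:**
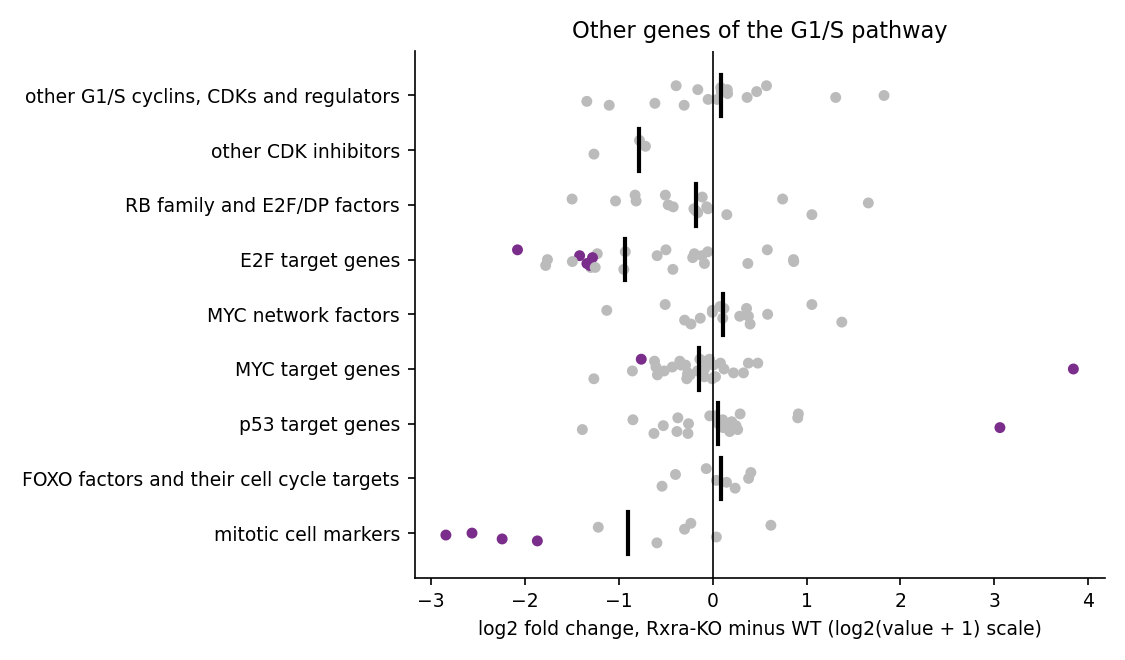
Log2 fold change of every gene of the lists in the table, libraries labelled Rxra-KO against WT, as points, with called genes in purple and each list's median as a black bar. The E2F target and mitotic lists have medians of -0.93 and -0.91, and the other lists with more than 3 genes in the table have medians between -0.18 and 0.11.

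Around *Myc*, none of the 17 of 19 network factors in the table passed, with a median of 0.11. Of 32 MYC target genes, 1 rose (*Tfrc*) and 1 fell (*Npm1*), with a median of -0.15. The shares over all genes were 1.32% called higher and 0.969% called lower, so counts of 1 are not read as a result about the list. *Tfrc*, which encodes the transferrin receptor for iron uptake and is also set by iron levels, had values of 43.2 and 19.0 in WT and 352 and 514 in the libraries labelled Rxra-KO (log2 fold change 3.84, limma adjusted p = 7.84e-28). *Npm1*, a nucleolar protein of ribosome assembly, had values of 1313 and 1956 in WT and 844 and 1059 in the libraries labelled Rxra-KO (log2 fold change -0.76, limma adjusted p = 0.0268). The 2 called genes of this list moved in opposite directions, and *Npm1* lost its call without WT replicate 2 (-0.47) or Rxra-KO replicate 1 (-0.60).

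Of 21 p53 target genes other than *Cdkn1a*, 1 rose: *Plk2*, a polo-like kinase, had values of 3.79 and 2.71 in WT and 45.9 and 25.3 in the libraries labelled Rxra-KO (log2 fold change 3.06, limma adjusted p = 0.000265). The other 20 did not pass, and the median was 0.06. With 1.32% of all genes called higher, a count of 1 is not read as a result about this list. Without Rxra-KO replicate 1, *Plk2* was not called (2.64). Of 8 FOXO factors and their cell cycle targets, none was called.

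Of 10 markers of proliferating cells, 4 fell: *Ccnb2*, *Mki67*, *Top2a* and *Cenpf* had log2 fold changes of -2.84, -2.56, -2.24 and -1.87. The share called lower over all genes was 0.969%. The other 6 markers were not called, and of these *Birc5* (0.04) and *Plk1* (0.62) were higher, with overlapping groups. The summed value of the 10 was 689 and 1663 in WT and 313 and 273 in the libraries labelled Rxra-KO. These sums did not overlap, with a wide gap between the WT libraries. *Mki67* alone was most of each WT sum, at 417 and 942, against 127 and 86.9 in the libraries labelled Rxra-KO. The part of dividing cells in the *Ccnd1* result was not tested. Without WT replicate 2 *Mki67* was the 1 marker of the 10 still called, and with DESeq2 *Top2a* was not called (adjusted p = 0.115). Without WT replicate 1 or WT replicate 2, the log2 fold change was -3.64 or -3.21 for *Ccnd1* and -3.15 or -1.98 for *Mki67*.

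The 3 genes whose pattern over the 4 libraries was most like that of *Ccnd1*, by Euclidean distance between centred log2(value + 1) values and with a mean value of at least 10, were *Slpi*, *Gm1631* and *Ptgis*, at distances of 0.411, 0.515 and 0.591. Their log2 fold changes were -3.05, -3.04 and -3.005, a likeness that the choice of the genes fixed.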

How the data were processed

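RNA of 2 WT and 2 Rxra-KO samples of sorted LPMs was amplified with the SMART-Seq v4 kit for low input, without molecular identifiers. Per the methods and the submitters' processing notes, the authors quantified transcripts with kallisto (0.43.0), summarised them to genes, filtered low genes and scaled with TMM and limma. They name a human build for these mouse libraries; the reference was not settled, and coordinates are given only for RefSeq promoters. The authors left out samples that did not cluster with their group. The deposited signal is a normalised value per gene and library, equal to (reads + 0.5) times a fixed step, and 100% of values gave whole reads (tolerance 0.01). No sample column was left unused. Replicates are numbered 1 and 2 as in the titles.

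Values were fitted as log2(value + 1) with limma 3.58.1 (R 4.3.3, mean-variance trend), using the 4 libraries and no covariate. Tests were two-sided and adjusted by Benjamini-Hochberg for 18364 genes. A call needed an adjusted p below 0.05 and a log2 fold change of 0.6 or more in size. The design allows an exact permutation p of at least 0.333 for a single value, so adjusted p-values rest on the spread limma shares across genes. Alternatives used other pseudocounts, filters, scalings and thresholds, voom, edgeR 4.0.16, DESeq2 1.42.0 and each library left out. Lengths are those of the longest protein-coding GENCODE vM21 transcript.

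Every member is named. Called genes of the lists are named, at most 5 per list by size of change with a mean value of at least 10, with direct partners of members and the 3 genes most like *Ccnd1*. Members and lists were chosen with earlier results of these data known. *Cdkn2b*, *Cdkn1c*, *Cdkn2d*, *Ccnh*, *Sesn1*, *H2-Ab1*, *Cd209a*, the promoter shown and the motifs capitalised in it were chosen after their values were seen. So were *Pcna*, *Tyms*, *Slbp*, *Birc5*, *Plk1* and *Prg4*.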

Additional observations from a re-analysis of the deposited data

How the results depend on the processing

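The number of genes called, 421, became 0 without the mean-variance trend in limma (1579 genes had an unadjusted p under 0.05), 235 with DESeq2 and 446 with edgeR, and ranged from 236 to 377 with each library left out (236 without WT replicate 2, 244 without Rxra-KO replicate 1). Without WT replicate 2, 70.3% of calls were higher, against 57.7% in all libraries. *Ccnd1* was the 1 member called under every alternative except the fit with no trend, where 0 members were called and its adjusted p was 0.26; its log2 fold change stayed between -3.64 and -3.17. Its share of the D-type cyclins per kilobase differed by -46.2 percentage points. With each library left out, changes turned sign for *Ccnd2* (-0.26 to 0.52), *Ccnd3* (-1.76 to 0.15), *Cdkn1a* (-0.077 to 0.59), *Cdkn1b* (-0.34 to 0.61), *Rb1* (-0.28 to 0.10), *Ccne1* (-0.63 to 1.57), *Rbl2* (-0.28 to 0.58), *Mxd1* (-0.23 to 0.47) and *Mxi1* (-0.26 to 0.41). *Cdkn2c* and *Myc* stayed lower and uncalled, with adjusted p of 0.181 to 0.804 and 0.435 to 0.955. Without WT replicate 2 *Ccnh* was called (2.69), and without Rxra-KO replicate 2 *Sesn1* (1.31). A group left with 1 library is assumed to vary like the other. Among the alternatives, the fit with no filter repeated the main fit, since every gene had passed. The fit with no fold threshold gave the same 421 calls, so neither is a separate check. DESeq2 gave an adjusted p for 8751 of the 18364 genes, so its 235 calls come from those alone. Of the called list genes, *Cdt1* and *Mcm3* were called under 7 and 8 of 17 alternatives and *Mki67* and *Tfrc* under 16.

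The replicate numbers share no stated origin. Deviations of same-numbered libraries correlated at 0.0629 over 10049 genes, which cannot show where the libraries came from. With 2 libraries per group, both pairs give this same value. Replicate 2 was also deeper in both groups, with 947372 and 1047021 recovered reads against 652542 and 629030. With the replicate block 540 genes were called, the 421 among them. With 4 members under 10 mean reads, depth limits what can be seen for *Cdk4*, *Cdk6*, *Cdkn2c* and *Myc*.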
